A study of Mus musculus with 16 samples.

Results

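Embryonic stem (ES) cells that carry 1 mutated copy of Abca1 (Abca1 +/-) were compared with the +/+ line they were derived from, ESVJ, as 3 arrays against 3. These 6 arrays are those of the series whose source name gives either line, out of 16 arrays in all. Every probe set that the annotation ties to a single gene was considered: 5590 of the 8252 genes with such a probe set had enough signal to be tested. Both lines were expanded on irradiated mouse embryonic fibroblasts that serve as feeder cells. The feeders were then removed, the ES cells were held on gelatin for about 2 days and total RNA was extracted with Trizol and RNeasy. Neither the Abca1 mutation nor the number of clones behind the line is given in the sources used here, and nothing says that the 3 arrays of a line came from separate cultures. The p-values therefore measure only the spread between these samples, which may be technical. The other ES arrays of the series, 3 of the +/+ line E14 and 3 of a Cdk4 +/- line, came from feeder-independent cells and RNeasy alone. The 4 liver arrays, 2 from +/+ mice and 2 from mice labelled Abca1 +/-, came from animals of mixed C57BL6/J and 129/SvJ background. Signals below are MAS5 intensities rescaled to a trimmed mean of 500 per array. Log2 differences are Abca1 +/- minus ESVJ of log2(signal + 32), a scale that understates the difference of weakly expressed genes. "Passed" means an adjusted p under 0.05 over all 7349 probe sets tested.

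Abca1 encodes a transporter of the ATP-binding cassette (ABC) family in the plasma membrane, which hands cholesterol and phospholipid from the cell to lipid-poor apolipoproteins such as apoA-I. Cells that hold excess sterol switch the gene on through liver X receptors paired with retinoid X receptors, while falling sterol releases SREBP2, the activator of the cholesterol synthesis enzymes. Dividing cells, ES cells included, need cholesterol for their membranes. The comparison asks which transcripts of ES cells differ once 1 copy of this transporter gene is mutated.

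The starts of 3 genes whose values are described first are shown for orientation: Abca1, the targeted gene, and the keratin genes Krt8 and Krt18, which had the smallest p-values of all genes. Each sequence is the 150 bases before the start of the gene, from RefSeq on GRCm38.p6, written 5′ to 3′ on the strand of the gene. Capitals mark the letters TATAAA, the classical TATA box, and CACGTG, a palindromic E-box, found on either strand.
Abca1, chr4:53159896-53160045, minus strand: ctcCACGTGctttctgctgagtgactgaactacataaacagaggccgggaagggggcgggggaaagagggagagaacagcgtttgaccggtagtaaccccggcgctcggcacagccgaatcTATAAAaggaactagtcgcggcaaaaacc
Krt8, chr15:102004343-102004492, minus strand: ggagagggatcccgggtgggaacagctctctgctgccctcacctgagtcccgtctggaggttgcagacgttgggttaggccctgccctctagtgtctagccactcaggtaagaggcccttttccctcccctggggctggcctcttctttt
Krt18, chr15:102028066-102028215, plus strand: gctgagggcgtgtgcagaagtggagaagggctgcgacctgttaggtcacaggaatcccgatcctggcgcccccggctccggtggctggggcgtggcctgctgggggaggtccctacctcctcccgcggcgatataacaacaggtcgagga
The Abca1 stretch holds each motif 1 time, and the keratin stretches hold neither within these 150 bases. TATAAA is in 7.57% and CACGTG in 4.3% of 32851 promoter stretches of this length, and a match of letters is no evidence of binding. Krt8 and Krt18 lie next to each other on chromosome 15, with no other protein-coding gene between them and their starts facing each other.

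Abca1 itself was weakly expressed in both lines. Its tested probe set read 94.0, 115 and 123 in Abca1 +/- cells and 178, 144 and 102 in ESVJ cells, so the groups overlapped. The means were 110 ± 14.8 and 141 ± 38.1 (SD, n = 3 each), a log2 difference of -0.26 (SE 0.20, unadjusted p = 0.202, adjusted p = 0.9997). On this scale the Abca1 +/- level was 83.3% of the ESVJ level with a 95% interval from 62.1% to 112%. With a pseudocount of 1 in place of 32, the share was 79.8% and its interval ran from 56.2% to 113%. Both intervals hold 100%, and the lower bound of the second lies just above 50%, the share that 1 of 2 copies would give in proportion. The value depended on single arrays: the log2 difference was -0.11 without ESVJ replicate 1 and -0.44 without ESVJ replicate 3. A second Abca1 probe set read 92.8, 65.4 and 132 against 126, 91.6 and 113, with means of 96.6 and 110. It was left out of the fit because its mean over the arrays of all ES lines was under the minimum signal of 100. Its mean was 29.7 in E14 cells and 102 in Cdk4 +/- cells. An exact two-sided permutation test over the 3 and 3 arrays gave p = 0.3 for the first and p = 0.7 for the second probe set, where 0.1 is the smallest this design allows. Whether either probe set lies in a part of the gene that the mutation removes is not given in the sources used here, so they may not check the genotype labels. The 3 nearest measured genes on each side of Abca1 on chromosome 4 had log2 differences from -0.34 for Smc2, a condensin subunit gene, to -0.07 for Slc44a1, a choline transporter gene, and all 6 were below 0 (unadjusted p of 0.0548 or more).

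**Figure D1:**
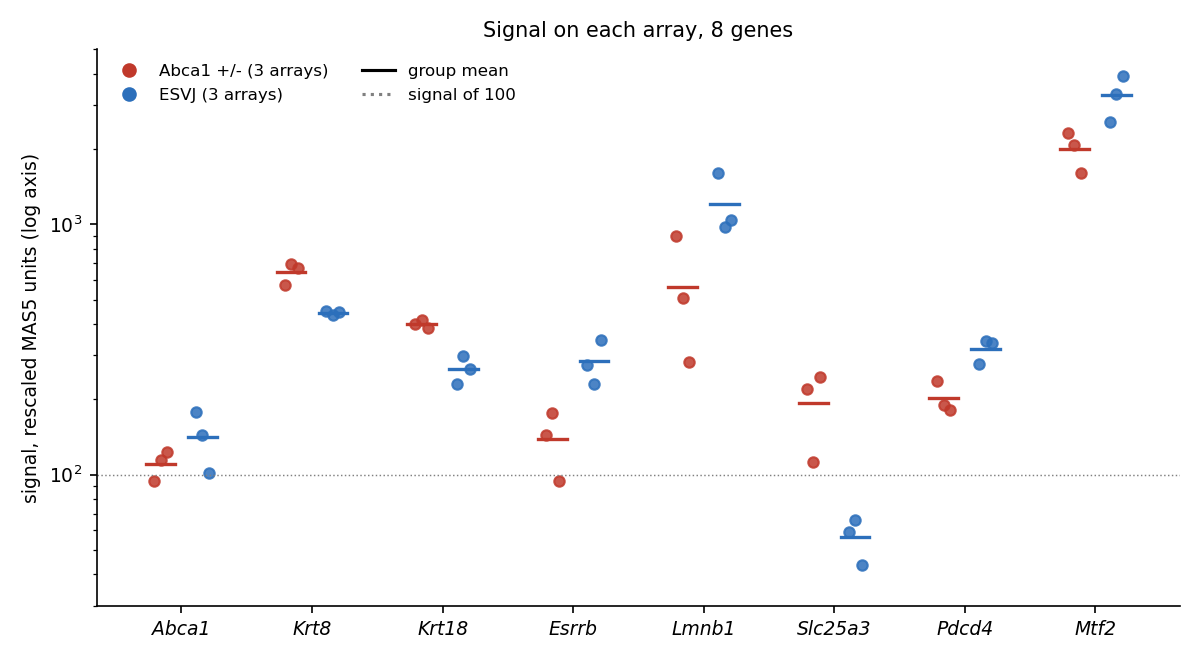
Signal of each of the 6 arrays (points, log axis, rescaled MAS5 units) and group means (bars) for 8 genes; the dotted line is the minimum mean signal of 100. The Abca1 points of the 2 lines overlap, while those of Krt8, Krt18, Esrrb, Lmnb1, Slc25a3, Pdcd4 and Mtf2 do not.

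The labelled cell type was borne out by its markers in both lines. Pou5f1, the POU factor at the core of pluripotency, was at 9329 ± 1541 in Abca1 +/- and 10679 ± 1368 in ESVJ cells (SD, n = 3 each). Sox2 was at 6797 ± 505 and 7011 ± 620, and Nanog at 6637 ± 655 and 7203 ± 1242. The summed signal of 10 ES cell markers ran from 54948 to 64406 on the Abca1 +/- arrays and from 56516 to 64205 on the ESVJ arrays. Of 15 fibroblast markers, which would show left-over feeder cells, 6 lay below 100 on all 6 arrays, among them the collagen gene Col3a1, the decorin gene Dcn and the receptor gene Pdgfrb. Others had clear signal: Col1a2 read 1193 to 1386 on the 6 arrays, Tagln 987 to 1373, Acta2 536 to 787 and Col1a1 225 to 374. Col1a2 read 837 to 894 in E14 cells and 946 to 1362 in Cdk4 +/- cells. The summed fibroblast markers ran from 3911 to 4254 and from 4144 to 4456. They reached 13226 or more in the feeder-independent E14 cells, mostly through the smooth muscle genes Tagln and Acta2, so the sum is not specific to feeders. Of 9 measured endoderm markers Foxa2, Hnf4a and Ttr lay below 100 on all 6 arrays, while the endoderm factor gene Gata4 read 309.7 to 1093, Dab2 370.2 to 563, Sox7 225 to 313 and Sox17 189.6 to 297. The summed endoderm markers ran from 1576 to 2411 on the Abca1 +/- and from 2054 to 2148 on the ESVJ arrays. Of 7 trophectoderm markers Cdx2, Elf5, Gata3 and Krt7 lay below 100 on all 6 arrays, while Hand1 read 250.2 to 576 and Ascl2 127 to 276. The correlation r across all probe sets was from 0.978 to 0.986 between arrays of different lines and from 0.976 to 0.985 between arrays of 1 line. Abca1 +/- replicate 1 and ESVJ replicate 3 had BioB hybridisation controls at 2846 and 2808 against 557 to 666 on the other 4.

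Across all genes few differences between the lines passed. No single-gene probe set passed the test, 0 of 5590 genes (0%), and over all 7349 probe sets 2 (0.0272%) did, both without a single gene in the annotation. The first, 93028_at, read 1155, 1037 and 1075 in Abca1 +/- cells against 314, 366 and 450 in ESVJ cells (log2 difference 1.47, SE 0.15, adjusted p = 7.01e-04). The other, 99449_at, read 39.0, 55.0 and 42.6 against 156, 157 and 180 (-1.34, SE 0.21, adjusted p = 0.0391) and did not pass with any 1 of the 6 arrays left out. Without the arrays of high BioB signal, Abca1 +/- replicate 1 and ESVJ replicate 3, 1 gene passed, Tmed9, which encodes a cargo receptor of the early secretory pathway (log2 difference -1.45, SE 0.19, adjusted p = 0.0135). With all 6 arrays it read 889, 484 and 365 against 1192, 1218 and 608 (-0.79, SE 0.28, adjusted p = 1), and it is named after its values were seen. At unadjusted p under 0.05 there were 89 genes higher (1.59%) and 90 lower (1.61%), 179 in all (3.2%). The 3 arrays of 1 line all lay on one side of the 3 of the other for 459 genes (8.21%), 236 higher (4.22%) and 223 lower (3.99%) in Abca1 +/- cells. The log2 difference was above 0 for 2851 genes (51%) and below 0 for 2739 (49%), with a median of 0.004. It was 1 or more for 2 genes (0.0358%), Slc25a3 and Kcnn1, and -1 or less for 2 (0.0358%), Lmnb1 and St8sia5.

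The precision set what could be seen. The 95% interval of a typical gene reached 0.36 to each side of its log2 difference, and the whole interval lay between -1 and 1 for 5365 genes (96%). For weakly expressed genes a value of 1 on this scale stands for more than a 2-fold change of signal. Between -0.5 and 0.5 lay the intervals of 3058 genes (54.7%). The precision rose with signal: of 1111 genes with a mean signal under 200 the interval lay within 0.5 of 0 for 16.6%, and of 758 genes at 2000 or more for 83.1%.

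**Figure D2:**
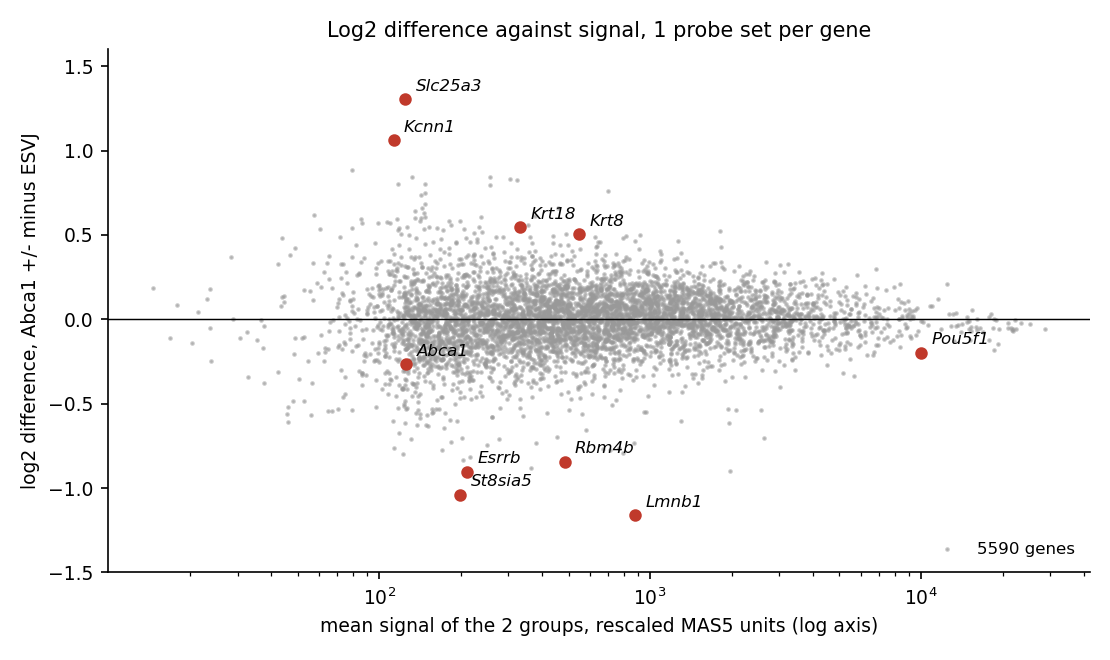
Log2 difference, Abca1 +/- minus ESVJ (vertical axis), against the mean signal of both lines (horizontal log axis, rescaled MAS5 units) for 5590 genes, 1 probe set per gene. 10 named genes are marked in red; the cloud narrows with signal, Slc25a3 is highest at 1.30 and Lmnb1 lowest at -1.16.

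Krt8 and Krt18 encode the paired type II and type I keratins of simple epithelia, which form filaments only together. Krt8 read 571, 694 and 672 in Abca1 +/- cells and 451, 434 and 448 in ESVJ cells, means of 646 ± 65.8 and 445 ± 8.99. Krt18 read 399, 413 and 384 against 231, 297 and 264, means of 399 ± 14.1 and 264 ± 32.8. For both genes each Abca1 +/- array was above every ESVJ array. The log2 differences were 0.50 (SE 0.11, unadjusted p = 3.17e-04, adjusted p = 0.777) and 0.55 (SE 0.12, unadjusted p = 4.26e-04, adjusted p = 0.783), so neither passed. They were between 0.45 and 0.59 and between 0.46 and 0.62 with each array left out, with an adjusted p of 0.131 or more. Without both arrays of high BioB signal they were 0.59 and 0.55. A second Krt18 probe set lay at 20.2 or less on all 6 arrays and carried no usable signal. The 3 nearest measured genes on each side of the pair had log2 differences from -0.14 for Krt72 to 0.18 for Krt2, both keratin genes, and the adjoining translation factor gene Eif4b was at 0.09. Both keratins were low in these lines beside feeder-independent cells, where Krt8 was at 9866 ± 506 in E14 and 8601 ± 454 in Cdk4 +/- cells (SD, n = 3 each).

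Other genes of simple epithelia and cell junctions were taken from a list that holds both keratins. None of its 28 tested members passed, 17 were above 0 and 11 below, and the median was 0.035 against 0.004 for all genes. At unadjusted p under 0.05 there were 4 of the 28, all higher, where 1.59% of all genes were: Krt8, Krt18, Cldn7 and Dsp. Cldn7, a tight junction claudin gene, read 153, 147 and 165 against 112, 80.3 and 44.4 (log2 difference 0.80, SE 0.26). Dsp, which encodes the desmosomal plakin desmoplakin, read 505, 597 and 503 against 436, 276 and 472 (0.44, SE 0.19). The partner keratin gene Krt19 was at 73.6 and 54.4 (0.33, SE 0.19), the junction genes Cdh1, Tjp1 and Jup were at -0.07, 0.01 and -0.08, and Epcam was at 0.13. Krt19 thus had a mean below 100 in both lines and reached the minimum signal through E14 and Cdk4 +/- cells. The tested trophectoderm genes, 18 with both keratins among them, had a median of 0.084 and 3 at unadjusted p under 0.05. The third was Tfap2c, an AP-2 factor of trophoblast, at 763 ± 134 against 590 ± 78.6 (0.35, SE 0.14). Markers of trophectoderm summed to between 759 and 1030 on Abca1 +/- arrays and between 553 and 961 on ESVJ arrays, and their part in the keratin values was not tested.

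Esrrb, an orphan nuclear receptor that holds ES cells in self-renewal, was lower on every Abca1 +/- array. It read 144, 177 and 94.7 against 273, 231 and 346, means of 138 ± 41.2 and 283 ± 58.0, a log2 difference of -0.90 (SE 0.24, unadjusted p = 0.00165, adjusted p = 0.974). Its signal in the E14 and Cdk4 +/- lines was lower still, at 51.0 ± 11.2 and 58.0 ± 13.1 (SD, n = 3 each). It thus reached the minimum mean signal of 100 mainly through ESVJ cells, the group in which it is highest. Among 41 tested pluripotency genes none passed, 20 were above 0 and 21 below, the median was -0.011, and 4 had an unadjusted p under 0.05. Besides Esrrb these were Rex2 at 477 ± 101 against 864 ± 301 (-0.77, SE 0.30), Klf2, a naive-state Krüppel-like factor gene, at 429 ± 63.2 against 283 ± 62.3 (0.56, SE 0.22), and Il6st. Il6st encodes gp130, the signalling chain of the LIF receptor, and read 457, 421 and 414 against 352, 341 and 265 (0.41, SE 0.14) by 1 probe set and had 0.11 by the other. The intervals of the core factors held 0: from -0.50 to 0.10 for Pou5f1, from -0.28 to 0.19 for Sox2 and from -0.44 to 0.22 for Nanog. Those of Zfp42 and Klf4 ran from -0.27 to 0.24 and from -0.43 to 0.16.

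The other 10 of the 12 genes with the smallest p among those higher in Abca1 +/- cells were of varied function. Cd99, a cell surface glycoprotein gene, read 478, 687 and 545 against 311, 385 and 346 (0.66, SE 0.17). Tgfb1i1, the gene of the focal adhesion adaptor Hic-5, read 456, 421 and 501 against 223, 333 and 323 (0.61, SE 0.16). Slc25a3, which encodes the mitochondrial phosphate carrier, had the largest difference of any gene, 220, 112 and 246 against 59.2, 65.7 and 43.6 (1.30, SE 0.36). Its 1 probe set spread widely within other lines, with 163, 77.5 and 57.9 in E14 and 210, 61.5 and 145 in Cdk4 +/- cells. Its mean was under 100 in ESVJ and E14 cells, and it reached the minimum signal mainly through Abca1 +/- cells, where it is highest. For Cd99, Tgfb1i1 and Slc25a3 the lines did not overlap, where 4.22% of all genes were higher without overlap. Choice by small p favours such separation, so it adds no support. Cds2, an enzyme gene of CDP-diacylglycerol synthesis for phosphoinositides, was at 751 ± 112 against 534 ± 48.3 (0.46, SE 0.14). Mybbp1a, a nucleolar Myb-binding protein gene, was at 2136 ± 330 against 1485 ± 284 (0.52, SE 0.16), and its other tested probe set had 0.30 (SE 0.23). Nav2, a neuron navigator gene, was at 577 ± 78.4 against 399 ± 72.4 (0.51, SE 0.16). Brk1, a subunit of the actin-regulating WAVE complex, was at 2990 ± 184 against 2364 ± 222 (0.34, SE 0.11). The kinase gene Dapk3 read 108, 95.9 and 121 against 101, 24.0 and 26.6, so that ESVJ replicate 1 lay inside the Abca1 +/- range. Without that array its log2 difference went from 0.88 to 1.29 (adjusted p = 0.106). Krtap3-1, a hair keratin-associated protein gene, was at 333 ± 66.2 against 178 ± 33.9 (0.80, SE 0.26), and Cldn7 is given above. Also among the 5 largest non-overlapping differences above 0 were Kcnn1, a calcium-activated potassium channel gene, with 205, 121 and 169 against 60.6, 62.1 and 60.1 (1.06, SE 0.41), and Notch1, the receptor gene, with 211, 173 and 182 against 140, 87.0 and 94.7 (0.68, SE 0.23). A second Notch1 probe set had 0.08. Kcnn1 also spread widely within other lines, with 141, 294 and 54.2 in E14 and 40.3, 147 and 55.3 in Cdk4 +/- cells.

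Genes of nuclear proteins were among the 12 with the smallest p on the lower side. Lmnb1, the gene of lamin B1 in the nuclear lamina, read 894, 509 and 281 against 1598, 972 and 1040 (log2 difference -1.16, SE 0.31, adjusted p = 0.9997). The Abca1 +/- arrays spread widely, and the highest lay just below the lowest ESVJ array. Mtf2, a Polycomb-like protein gene, read 2314, 2067 and 1602 against 2568, 3326 and 3925 (-0.70, SE 0.18), and its other 2 tested probe sets had -0.31 (SE 0.12) and -0.20 (SE 0.17). Cbx5, the gene of heterochromatin protein HP1 alpha, read 912, 535 and 891 against 1127, 1109 and 1138 (-0.55, SE 0.16), with -0.25 (SE 0.16) by its second probe set. The probe sets of either gene had 1 sign and different sizes. Rbm4b, an RNA-binding protein gene, read 286, 319 and 405 against 501, 680 and 710 (-0.84, SE 0.21). Pdcd4, an inhibitor of the translation initiation helicase, read 236, 189 and 182 against 278, 341 and 335 (-0.58, SE 0.15). Tle5, a short Groucho-type corepressor gene, was at 777 ± 99.9 against 1151 ± 157 (-0.55, SE 0.15), and Skp1, the adaptor gene of SCF ubiquitin ligases, at 1692 ± 307 against 2464 ± 389 (-0.54, SE 0.16). By the probe set of highest signal none of these genes overlapped between the lines, where 3.99% of all genes were lower without overlap. The choice by small p favours such separation here too, so it adds no support. The second Cbx5 probe set and the Mtf2 probe set at -0.20 did overlap. Itpkb, an inositol trisphosphate kinase gene, was at 271 ± 24.5 against 389 ± 51.3 (-0.47, SE 0.14).

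Some of the lower genes rested on 1 probe set of several or on single arrays. Dazl, a germ cell RNA-binding protein gene, read 281, 430 and 303 against 477, 697 and 526 (-0.70, SE 0.21) by 1 probe set and had 0.03 (SE 0.22) by the other. Otub1, a deubiquitinase gene, read 76.5, 192 and 148 against 267, 182 and 355 (-0.83, SE 0.25) and had 0.18 (SE 0.31) by its second. Swi5, a recombination factor gene, read 2183, 1018 and 1032 against 2093, 3161 and 2324 (-0.90, SE 0.25), so that Abca1 +/- replicate 1 lay inside the ESVJ range. St8sia5, a sialyltransferase gene, read 50.4, 174 and 154 against 258, 329 and 229 (-1.04, SE 0.32). Rbfox2, a splicing factor gene, had -0.88 (SE 0.28) and -0.01 (SE 0.40) by its 2 tested probe sets, and the checkpoint gene Hus1 had -0.98 (SE 0.38) and 0.11 (SE 0.20). Probe sets of 1 gene often went different ways here: of 909 genes with at least 2 tested probe sets, 475 (52.3%) had 1 sign throughout.

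**Figure D3:**
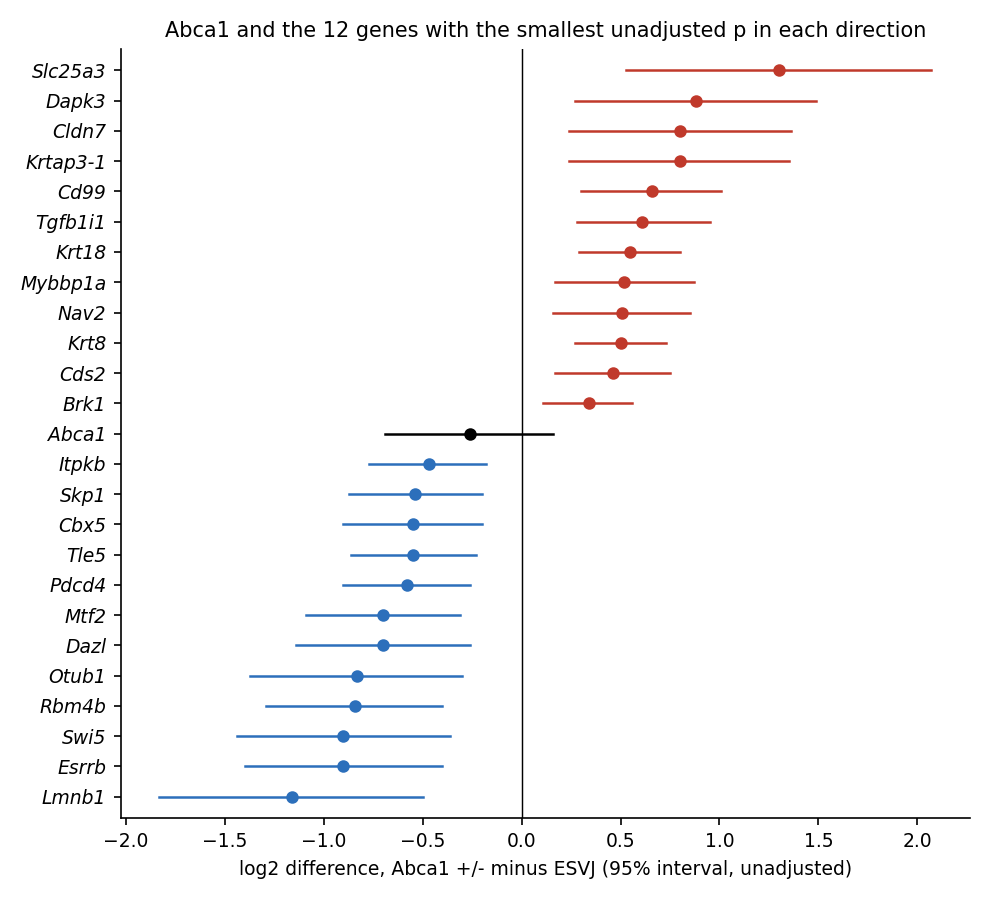
Log2 difference (points) and unadjusted 95% interval (lines) of Abca1 and of the 12 genes with the smallest unadjusted p in each direction. The 24 intervals lie on one side of 0 because the genes were chosen by p, and that of Abca1, from -0.69 to 0.16, holds 0; none of the 25 genes passed.

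The genes around Abca1 in cholesterol handling lay close to 0. Of 23 tested genes of cholesterol efflux and transport none passed and none had an unadjusted p under 0.05, 11 were above 0 and 12 below, and the median was -0.006. Abca1 at -0.26 was the lowest of them and Pltp, the phospholipid transfer protein gene, the highest at 0.17 (649 ± 65.6 against 575 ± 71.0). Apoe, the apolipoprotein gene with the most signal in the list, read 5337, 7906 and 7194 against 6306, 7221 and 5344 (0.11, SE 0.17), and the lines overlapped. Hdlbp, the gene of vigilin, read 2973, 2652 and 2727 against 2516, 2555 and 2513 (0.14, SE 0.10). Scp2, a sterol carrier gene, was at 353 ± 1.09 against 405 ± 16.8 (-0.18, SE 0.18). Abcg1, the cholesterol exporter that liver X receptors also drive, had -0.13 (SE 0.18), and the endosomal cholesterol transporter gene Npc1 had 0.08 (SE 0.12). Rxrb, a retinoid X receptor gene, was at 1807 ± 53.6 against 1897 ± 249 (-0.06, SE 0.14).

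Cholesterol synthesis genes lay on both sides of 0. Of 16 tested genes none passed, 9 were above 0 and 7 below, the median was 0.034, and no unadjusted p was under 0.05. Hmgcs1, which makes the substrate of the committed reductase step, was at 1663 ± 248 against 1613 ± 314 (0.05, SE 0.23), and Fdft1, the squalene synthase gene, at 1396 ± 151 against 1369 ± 293 (0.04, SE 0.24). Fdps, the farnesyl diphosphate synthase gene, was at 2463 ± 298 against 2795 ± 619 (-0.16, SE 0.40). Cyp51, the lanosterol demethylase gene, read 167, 157 and 166 against 203, 208 and 219 (-0.31, SE 0.21), and Mvk, the mevalonate kinase gene, read 591, 498 and 576 against 628, 683 and 717 (-0.27, SE 0.21). These 2 were lower on every Abca1 +/- array (unadjusted p = 0.161 and 0.207). Mbtps1, the protease gene that releases SREBP, was at 1156 ± 53.2 against 1006 ± 81.7 (0.20, SE 0.13, unadjusted p = 0.139), higher on every array. The lines did not overlap for 18.8% of this list and for 8.21% of all genes. The median half-width of an interval in this list was 0.50, wider than the 0.36 of all genes, so small shifts of these enzymes were not detectable.

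Of 17 other tested genes of the ABC transporter family none passed, 6 were above 0 and 11 below, and the median was -0.017. Abcb1b, a multidrug transporter gene, read 172, 190 and 201 against 166, 115 and 108 (0.46, SE 0.22, unadjusted p = 0.0545), and did not overlap between the lines. Abcf3 was at 272 ± 27.7 against 210 ± 31.0 (0.33, SE 0.19), and Tap1, a peptide transporter gene of antigen presentation, read 166, 181 and 162 against 151, 131 and 145 (0.21, SE 0.14). The ribosome-associated members had the most signal: Abcf1 had 0.18 (SE 0.13), Abce1 -0.22 (SE 0.16) and Abcf2 -0.09 (SE 0.15). Abcg2, a marker of side-population stem cells, had -0.01 (SE 0.18).

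Wider lipid metabolism was represented by 3 lists, in which no gene passed. Of 25 phospholipid and sphingolipid genes 15 were above 0 and 10 below (median 0.054); Cds2 alone had an unadjusted p under 0.05. Pla2g6, a phospholipase gene, was at 943 ± 154 against 728 ± 107 (0.36, SE 0.20), and Ugcg, the glucosylceramide synthase gene, at 428 ± 38.4 against 544 ± 111 (-0.31, SE 0.16). Of 14 fatty acid synthesis genes the acyl-CoA synthetase gene Acsl5 alone was under 0.05, with 227, 300 and 207 against 168, 176 and 114 (0.58, SE 0.21), while Fasn had 0.17 (SE 0.14) and the list median was -0.014. Of 33 lysosome and endocytosis genes the sialidase gene Neu1 was at 59.4 ± 18.0 against 99.4 ± 17.0 (-0.54, SE 0.22) and the cathepsin gene Ctsz at 592 ± 32.6 against 453 ± 83.6 (0.38, SE 0.16). Both were under 0.05 unadjusted, in opposite directions, and the median was 0.027. Neu1 had a mean below 100 in both lines and reached the minimum signal through E14 and Cdk4 +/- cells, at 131 and 130.

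Lists of the nucleus and the cell cycle held the lamin and Polycomb genes already named, with members on both sides of 0. Of 19 tested genes of the nuclear lamina and envelope, 10 were above 0 and 9 below (median 0.014), and 2 had an unadjusted p under 0.05, Lmnb1 and the emerin gene Emd, at 888 ± 92.8 against 1181 ± 206 (-0.39, SE 0.15). The other lamin genes Lmna and Lmnb2 had 0.18 (SE 0.13) and 0.21 (SE 0.17), on the other side of 0 from Lmnb1. The lamin B receptor gene Lbr had -0.21 (SE 0.13). Of 31 Polycomb and DNA methylation genes 20 were above 0 and 11 below (median 0.037), with 2 higher and 2 lower at unadjusted p under 0.05. These were Rnf2, a Polycomb ubiquitin ligase gene, at 1036 ± 35.7 against 781 ± 170 (0.41, SE 0.17), and Mbd3, a NuRD subunit gene (0.27, SE 0.12), with Mtf2 and Cbx5 on the lower side. The other 2 tested probe sets of Rnf2 had -0.39 and -0.30. Of 43 DNA replication genes 26 were above 0 (median 0.052), with Rrm1, the ribonucleotide reductase gene, at 2111 ± 323 against 1557 ± 221 (0.43, SE 0.17) and the clamp loader gene Rfc1 (0.27, SE 0.13) under 0.05. Of 41 mitosis genes Cks2, a cyclin-dependent kinase subunit gene, was alone under 0.05, at 4972 ± 176 against 6349 ± 1230 (-0.33, SE 0.15), and the median was -0.001. Among 23 genes of G1 control and 17 of the p53 response none was under 0.05, with medians of 0.045 and -0.052.

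Signalling, stress and metabolic lists gave medians between -0.045 and 0.046. In the list of LIF, JAK and STAT signalling, Il6st and the RAS exchange factor gene Sos1 (247 ± 26.4 against 165 ± 53.4, 0.53, SE 0.21) were higher and the STAT inhibitor gene Pias2 (1270 ± 173 against 1594 ± 192, -0.32, SE 0.13) was lower at unadjusted p under 0.05, out of 26. A second Pias2 probe set had -0.46. The list of FGF, TGF-beta and Wnt signalling had 48 tested genes with 30 above 0 (median 0.028). Beside Tgfb1i1 and Tle5, its member under 0.05 was Dvl1, the Wnt transducer gene dishevelled 1, at 816 ± 46.0 against 652 ± 98.0 (0.32, SE 0.13). Among 27 immediate early genes Klf2 was alone under 0.05; Dusp1 had 0.31 (SE 0.15) and Nr4a1 0.38 (SE 0.20), and the median was 0.046. The unfolded protein response (34 genes, median -0.008), heat shock (26, 0.010), glycolysis (23, -0.045) and glutathione lists (35, 0.031) held no gene under 0.05. Of 47 actin and focal adhesion genes, Tgfb1i1 and the tropomyosin gene Tpm1 (1404 ± 50.9 against 1180 ± 58.6, 0.25, SE 0.11) were under 0.05, both higher.

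**Figure D4:**
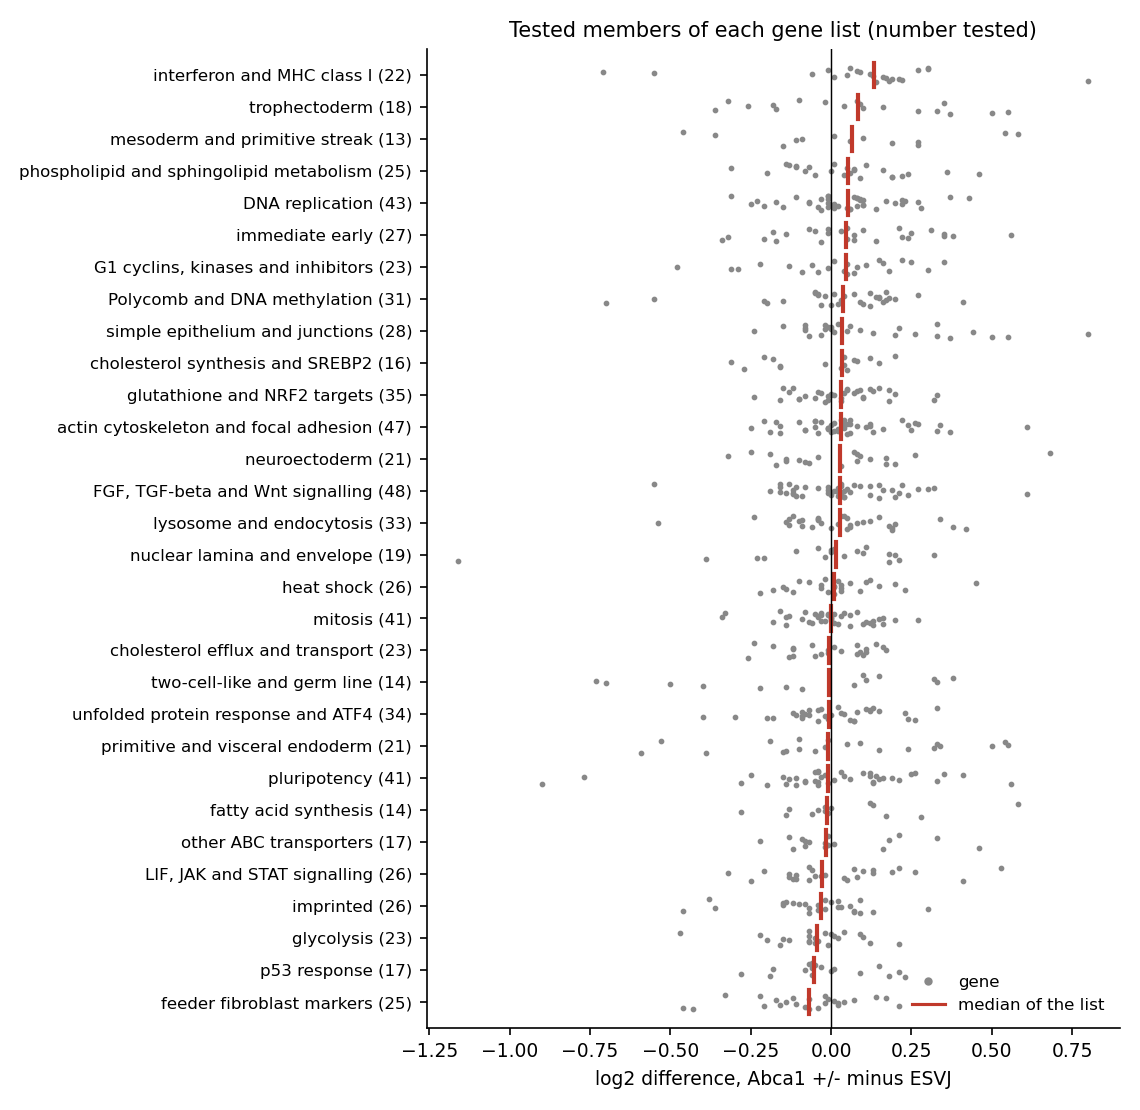
Log2 difference, Abca1 +/- minus ESVJ, of each tested member (grey points) of 30 gene lists, with the number tested in brackets and the median as a red bar. The medians run from -0.069 for feeder fibroblast markers to 0.134 for interferon and MHC class I genes; single genes such as Lmnb1 and Esrrb lie far from the medians of their lists.

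The list with the lowest median held feeder fibroblast genes and that with the highest held interferon and MHC class I genes. Of 25 tested feeder fibroblast genes 8 were above 0 and 17 below (median -0.069). Col1a1, the type I collagen gene, read 272, 237 and 225 against 374, 297 and 351 (-0.43, SE 0.14) by 1 probe set and had -0.40 (SE 0.17) by the other. The partner gene Col1a2 had -0.07 (SE 0.14). The summed fibroblast markers overlapped between the lines, as given above, and a part of left-over feeder cells in these values was not tested; fewer cells of a type and less RNA per cell cannot be told apart in such bulk samples. Of 22 interferon and MHC class I genes 18 were above 0 and 4 below (median 0.134, with 51% of all genes above 0), and 3 had an unadjusted p under 0.05. H2-M3, a class Ib gene, read 234, 187 and 153 against 184, 67.2 and 62.5 (0.80, SE 0.32), and Ifnar1, an interferon receptor gene, read 340, 329 and 331 against 280, 292 and 224 (0.30, SE 0.14). Ifitm1, an interferon-induced membrane protein gene, had the opposite sign with 117, 91.0 and 68.7 against 146, 169 and 194 (-0.71, SE 0.24). Of the ES lines only ESVJ had an Ifitm1 mean above 100, so the gene reached the minimum signal through ESVJ cells.

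No gene of the lineage lists passed. Of 21 tested genes of primitive and visceral endoderm 5 had an unadjusted p under 0.05, 3 higher and 2 lower, where 3.2% of all genes did, and the median was -0.009. On the lower side the factor gene Gata6 read 109, 138 and 73.4 against 203, 129 and 195 (-0.59, SE 0.26) and the plasminogen activator gene Plat was at 51.4 ± 14.2 against 89.5 ± 26.8 (-0.53, SE 0.18). Gata6 had means of 92.7 in E14 and 83.5 in Cdk4 +/- cells and reached the minimum signal mainly through ESVJ cells. Plat had a mean below 100 in both compared lines and reached it through E14 and Cdk4 +/- cells, at 683 and 879. The 3 higher genes were Krt8, Krt18 and the matrix protein gene Sparc (0.34, SE 0.16). Mesoderm genes (13, median 0.065) had none under 0.05, and neuroectoderm genes (21, median 0.028) had Notch1. Of 14 two-cell-like and germ line genes 7 were above 0 and 7 below (median -0.008), and 4 were lower at unadjusted p under 0.05, where 1.61% of all genes were. Beside Dazl these were the helicase gene Ddx4 (155 ± 61.7 against 227 ± 47.8, -0.50, SE 0.22), the meiotic entry gene Stra8 (127 ± 8.64 against 240 ± 84.9, -0.73, SE 0.27) and Gm2022, a gene of the repeated Tcl1-like family. Stra8 lay near the minimum signal and could be tested under only 10 of 18 alternative settings. Gm2022 read 2673, 2352 and 2744 against 3483, 3529 and 3275 (-0.40, SE 0.14). Its probe set is of a kind that matches several members of a family, so its value may stand for more than 1 gene. Of 26 imprinted genes the noncoding RNA gene Meg3 was alone under 0.05, with 552, 1076 and 874 against 1202, 1228 and 940 (-0.46, SE 0.20), while its second probe set had -0.15.

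Genes of every chromosome spread around 0. Medians per chromosome lay between -0.039 on chromosome 1 (124 of 289 genes above 0) and 0.032 on chromosome 5 (207 of 346 above 0), beside 0.24 for the 2 tested genes of chromosome Y. Chromosome 4, which carries Abca1, had a median of 0.013 over 356 genes. None of the 20 chromosomes with at least 140 tested genes had a gene that passed.

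The Cdk4 +/- and E14 lines share no array with this comparison, so the difference between both ES comparisons was tested in the same fit, as Abca1 effect minus Cdk4 effect (46 of 7349 probe sets passed, 0.626%). The cell lines, the culture and the RNA extraction differ between the 2 comparisons and cannot be told apart from the mutations. Among the 136 named genes 7 differed: Gm2022, Ddx4, Mtf2, Cbx5 and Smc2 on the lower side and Cd99 and Trim25, which encodes a ubiquitin ligase, on the higher. Named genes were mostly chosen by small p in the Abca1 comparison, whose values enter this difference. Their count is therefore no result beside the share of all probe sets. For Gm2022 the Abca1 +/- minus ESVJ value was -0.40 and the Cdk4 +/- minus E14 value 1.06, from 278 ± 52.7 to 614 ± 96.3 (SD, n = 3 each; difference -1.46, SE 0.20, adjusted p = 0.00617). For Cd99 they were 0.66 and -0.64, from 778 ± 138 in E14 to 486 ± 61.7 (difference 1.30, SE 0.24, adjusted p = 0.0248). For Krt8 the difference did not pass (0.70, adjusted p = 0.0529), nor for Krt18 (0.44, adjusted p = 0.233) or Esrrb (-1.02, adjusted p = 0.163). For Abca1 the difference was -0.66 (SE 0.28, adjusted p = 0.281).

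In liver the Abca1 genotype was represented by 2 arrays a group, and 188 of 7883 probe sets (2.38%) had an effect that differed from that in ES cells. Abca1 read 327 and 301 in +/+ livers and 699 and 555 in livers labelled Abca1 +/-, a log2 difference of 0.92 (SE 0.33, adjusted p = 0.191) that did not pass. The difference between tissues did not pass either (-1.19, SE 0.35, adjusted p = 0.0852). The second Abca1 probe set read the other way in the same livers, 295 and 140 against 41.5 and 161 (-1.0, SE 0.56, adjusted p = 0.366; difference between tissues 0.83, SE 0.58, adjusted p = 0.433). The probe sets of the targeted gene thus disagreed in sign and did not check the liver labels, on which all directions in liver rest. The 9 of 136 named genes that differed between tissues, such as Nav2 at 0.51 in ES cells and 3.67 in liver (difference -3.17, SE 0.40, adjusted p = 0.016), are given with the results for a closer look. The naming rule used ES values that enter this difference too, so this count is no result beside the share of all probe sets. Pdcd4 was at -0.58 in ES cells and 2.03 in liver (difference -2.61, SE 0.36, adjusted p = 0.016).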

How the data were processed

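Total RNA of each sample was hybridised to 1 Affymetrix mouse U74Av2 array, and the authors processed it with MAS5.0 at its defaults, per the labels. The deposited values are probe set intensities on a linear scale, which the authors had scaled to a 2% trimmed mean of 1501 on each of the 6 arrays. The columns of all 16 arrays were matched to their samples. Signals were rescaled to a trimmed mean of 500, 32 was added and log2 was taken.

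Of 12488 probe sets, 66 controls were left out, and 10855 had 1 gene symbol, 396 several and 1237 none in the annotation of the array. Those with a mean signal of at least 100 over the 12 ES arrays were tested with limma 3.58.1 in R 4.3.3 (empirical Bayes with an intensity trend, all 4 ES groups in 1 fit, 8 residual degrees of freedom) and Benjamini-Hochberg adjustment over 7349 probe sets. Where a gene had several tested probe sets, the one of highest mean signal stands for it. The liver contrast was fitted over both liver groups, Abca1 +/- and ESVJ cells (7883 probe sets, with 6 degrees of freedom left), and the values within liver over the livers alone. The number of arrays limits the precision. The fit was tested on simulated data.

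The members and gene lists were chosen with earlier results of these data known, so no list supports a direction. Named are Abca1, Krt8, Krt18 and Esrrb; the 12 genes with the smallest unadjusted p in each direction; the 5 largest differences in each direction without overlap between the lines; and up to 4 members per list with the smallest p, with the 3 of highest signal for the cholesterol and ABC lists. Genes of a list named beyond these, such as Lmna, Lmnb2, Abcg1, Npc1 and Sparc, were chosen after their values were seen. Promoter sequences and gene order are from RefSeq on GRCm38.p6. Other settings tried were pseudocounts of 1 and 100, signals as deposited, quantile normalization, a minimum signal of 200 or none, a fit with no trend, fits of the 2 lines alone or of all 16 arrays, an average over probe sets per gene and each array left out. Settings for the arrays of high BioB signal were chosen after seeing the data.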

Additional observations from a re-analysis of the deposited data

Results flagged for a closer look

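For 16 differences the Abca1 effect in ES cells and the effect in another comparison differed by a test of the difference itself. The genes were mostly named by small p in the Abca1 comparison, whose values enter each difference. The number that passed is therefore no result in itself. The values below are Abca1 +/- minus ESVJ, minus the other effect, on the log2 scale, with limma's adjusted p. Counts of alternatives are over 16 for the Cdk4 comparison and 15 for liver.

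Against the Cdk4 comparison, Gm2022 differed by -1.46 (adjusted p = 0.00617) and passed under 15 of 16 alternatives, the exception being the fit of all 16 arrays (adjusted p = 0.226). Ddx4, a germ cell helicase gene, differed by -1.6 (adjusted p = 0.0375) and passed under 8. The chromatin genes Mtf2 and Cbx5 differed by -1.24 (adjusted p = 0.0464, passed under 7) and -1.23 (adjusted p = 0.0295, passed under 9). Smc2, a condensin gene, differed by -1.11 (adjusted p = 0.0464, passed under 6), with -0.34 in the Abca1 and 0.77 in the Cdk4 comparison. Cd99 differed by 1.3 (adjusted p = 0.0248, passed under 9) and Trim25 by 1.21 (adjusted p = 0.0295, passed under 9). In the Abca1 comparison alone none of these 7 genes passed. In the Cdk4 comparison Smc2 (adjusted p = 0.0184), Cbx5 (0.68, adjusted p = 0.0313), Trim25 (-0.91, adjusted p = 0.00789) and Cd99 (-0.64, adjusted p = 0.0421) passed. Mtf2 did not pass there by its probe set of highest signal (0.54, adjusted p = 0.111) or by another (0.37, adjusted p = 0.213). A further Mtf2 probe set did pass there (0.63, adjusted p = 0.0104) and in the difference (-0.93, adjusted p = 0.0234). The differences of these genes thus rest in part on the Cdk4 +/- and E14 lines.

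Against liver, Nav2 differed by -3.17 (adjusted p = 0.016) and passed under 12 of 15 alternatives. Its signal was 67.8 and 71.1 in +/+ livers and 1826 and 870 in livers labelled Abca1 +/-. Pdcd4 differed by -2.61 (adjusted p = 0.016, passed under 10), with 673 and 819 against 4303 and 2277 in liver. Tle5 differed by -2.27 (adjusted p = 0.0334, passed under 6). Lifr, the LIF receptor gene, differed by -1.86 (adjusted p = 0.0236, passed under 9) by its probe set of highest ES signal. Other Lifr probe sets had the opposite sign, at 0.93, 0.74 and 0.78, and did not pass. Those at 0.74 and 0.78 had the most liver signal, with means of 10278 and 7145 in +/+ livers against 233 by the first. Ugcg differed by -1.91 (adjusted p = 0.0334, passed under 6) and Cd99 by 1.77 (adjusted p = 0.0347, passed under 6). The matrix genes Col1a1, Col5a2 and Bgn differed by -1.79 (adjusted p = 0.0334, passed under 6), -2.31 (adjusted p = 0.0347, passed under 5) and -1.75 (adjusted p = 0.0349, passed under 6). In liver Col1a1 read 9.99 and 34.0 against 111 and 97.0, and Col5a2 read 23.5 and 6.76 against 201 and 87.1. Neither had enough signal to be tested within liver. The second probe sets of Col1a1 (-0.9, adjusted p = 0.205) and Bgn (-0.89, adjusted p = 0.338) did not pass. With each of the 6 ES arrays left out in turn, Nav2 passed in 4 cases, Pdcd4 in 2, Lifr in 1 and the other 6 genes in 0.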

How the results depend on the processing

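No paired analysis was possible because the labels carry no replicate numbers. The count of 2 passing probe sets became 1 with no minimum signal, with one of 200, with the 2 compared groups alone, with the BioB level as a block (chosen after seeing the data) and with each array left out (1 to 1), and 0 with all 16 arrays. The count of single-gene probe sets was 0 in these settings. It was 1, Tmed9, without both arrays of high BioB signal (also chosen after seeing the data). The 136 genes chosen by the rule gave 2403 values under alternatives. None was past the threshold, 2388 kept their direction and 15 reversed. The reversed values were -0.13, -0.23 and -0.43 for Hus1, -0.01 and -0.01 for Apoe, 0.03 for Rxrb, -0.07, -0.12 and -0.06 for Hmgcs1, -0.04, -0.03 and -0.06 for Fdft1, 0.02 for Abcf2, 0.03 for Snai1 and -0.09 for Rnf2. For Hus1 (-0.43) and Rnf2 these are the means of all probe sets of the gene, and the others left out 1 array or both high-BioB arrays. With 1 array left out the ranges were -0.13 to 0.31 (Hus1), -0.01 to 0.27 (Apoe), -0.15 to 0.03 (Rxrb), -0.12 to 0.15 (Hmgcs1), -0.06 to 0.21 (Fdft1) and -0.16 to 0.02 (Abcf2). Abca1 was between -0.44 and -0.11. The 7 named genes that differed from the Cdk4 comparison became 1 with no minimum signal, 11 with one of 200, 2 with no trend, 0 with all 16 arrays, 2 without both high-BioB arrays and from 1 to 10 with 1 array left out. The 9 that differed from liver became 3 with quantile normalization, 3 with no minimum signal, 24 with all 16 arrays, 0 without both high-BioB arrays and from 0 to 3 with 1 array left out. Of the list medians under alternatives 554 stayed within the spread between arrays and 41 moved beyond it. The cause of these shifts was not tested.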

Other observations

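The 2 probe sets that passed have no single gene name, and their signals on all 16 arrays were as follows. 93028_at was at 1037 to 1155 in Abca1 +/- cells and 314 to 450 in ESVJ cells, at 196 to 209 in E14 cells, at 242 to 335 in Cdk4 +/- cells and at 129 to 463 in the 4 livers. 99449_at was at 39.0 to 55.0 in Abca1 +/- cells, and on the other 13 arrays it lay between 86.4 and 330.

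Ddx6 and Tmed9, both outside the naming rule, were singled out after their values were seen. Ddx6, an RNA helicase gene of processing bodies, had log2 differences of -0.52 (SE 0.27), -0.80 (SE 0.26) and -0.73 (SE 0.21) by its 3 probe sets (unadjusted p = 0.069, 0.00749 and 0.00409; adjusted p = 1 for each). Of the genes with 2 or more tested probe sets on 1 side of 0, it had the largest value of the smallest difference in size. The Abca1 +/- arrays spread widely there, for example 373, 175 and 212 against 436, 337 and 502 by the last. Tmed9, a cargo receptor gene of the early secretory pathway, read 889, 484 and 365 against 1192, 1218 and 608 (-0.79, SE 0.28, unadjusted p = 0.013). Without the 2 arrays of high BioB signal it was at -1.45 (SE 0.19, adjusted p = 0.0135), and that setting leaves 2 arrays a line.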
